A study of Rattus norvegicus with 6 samples.

Results

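Translation factors are the proteins that start and extend protein synthesis on the ribosome, and the 4E-binding proteins are inhibitors of its first step. Their transcripts were examined in left ventricular RNA from 3 diabetic and 3 normal rats, each heart on its own single-colour Affymetrix array. The set was every gene whose only annotated symbol begins with Eif and a digit, or with Eef, 56 genes out of 10411 named on the array. These 56 genes are read by 66 probe sets, where a probe set is a group of short oligonucleotides that reports 1 transcript. Each gene was taken at its brightest probe set by mean signal over the 6 arrays. A further 4 probe sets that name such a gene together with another one were left out. The design text counts the animals of each group as separate rats. The labels say nothing of how diabetes was produced or how long it lasted, nor of the rats' strain, sex, age or feeding state, and no other allele or agent is named for either group.

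As background, initiation begins when the eIF2 complex brings the initiator tRNA to the small ribosomal subunit, together with eIF1, eIF1A, eIF3 and eIF5. The cap-binding complex eIF4F, made of eIF4E, the scaffold eIF4G and the helicase eIF4A, then loads this assembly onto the mRNA. The 4E-binding proteins compete with eIF4G for eIF4E, and mTORC1, a kinase complex that responds to insulin and amino acids, phosphorylates them and so releases eIF4E. Elongation is driven by eEF1A, which delivers aminoacyl-tRNA, and by eEF2, which moves the ribosome along and is inhibited by its kinase eEF2K. In heart muscle insulin is a known stimulus of this pathway. Phosphorylation and protein amounts were not measured here, only transcripts.

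Signals are the linear intensities that the authors deposited, all scaled to 1 level. Arrays of a group correlated across tested probe sets at 0.965 to 0.972, against 0.935 to 0.958 between groups. The 11 cardiomyocyte markers found on the array were all tested, with a summed signal of 290860 to 366408 in normal and 286454 to 360175 in diabetic arrays. Differences are diabetic minus normal on the scale log2(signal + 16), where changes of weak signals come out too small. Only probe sets with a mean signal above the 40th percentile, here 117.65, were tested, 9518 in all. Genes are said to have changed, risen or fallen where limma's p, after Benjamini-Hochberg adjustment over all of these, was under 0.05. For signals ± gives the SD over the 3 arrays of a group, and for differences it gives the standard error. Of the cardiomyocyte markers, Myh7, the slow myosin heavy chain, rose (1.49 ± 0.21, limma adjusted p = 0.0101) and Myh6, the fast form, fell (-1.55 ± 0.29, limma adjusted p = 0.0319). These offset each other in the sum, with means of 18541 in normal and 51191 in diabetic arrays for Myh7, and 45677 and 16378 for Myh6. Ryr2 (-0.49 ± 0.17) and Mybpc3 (-0.25 ± 0.15) were lower in every diabetic array without passing. Groups did not overlap at 4 of the 11 markers, against 26.4% of all tested genes.

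Of the 56 genes, 53 passed the filter and 1 changed, Eif4ebp1, which encodes 4E-BP1, the founding 4E-binding protein. Its transcript was 3.51-fold higher in diabetic ventricles. The share of changed genes, 1.89%, lay near the background, since 182 of 6977 tested genes changed (2.61%, of which 1.40% higher and 1.20% lower). The lowest adjusted p among the other 52 members was 0.126. The groups did not overlap at 15 members, 9 higher and 6 lower in diabetic arrays, which is 28.3% against 26.4% of all tested genes (12.1% higher and 14.3% lower). At an unadjusted p under 0.05 there were 12 members, or 22.6%, against 19.8% of all tested genes. Differences were positive at 32 members and negative at 21, and they were positive at 3333 of the 6977 tested genes. The median difference was 0.06 over members and -0.01 over all tested genes, and the median size of a difference was 0.14 against 0.20. Members were also brighter, with a median signal of 1362 against 475, and no difference from other genes was tested.

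**Figure D1:**
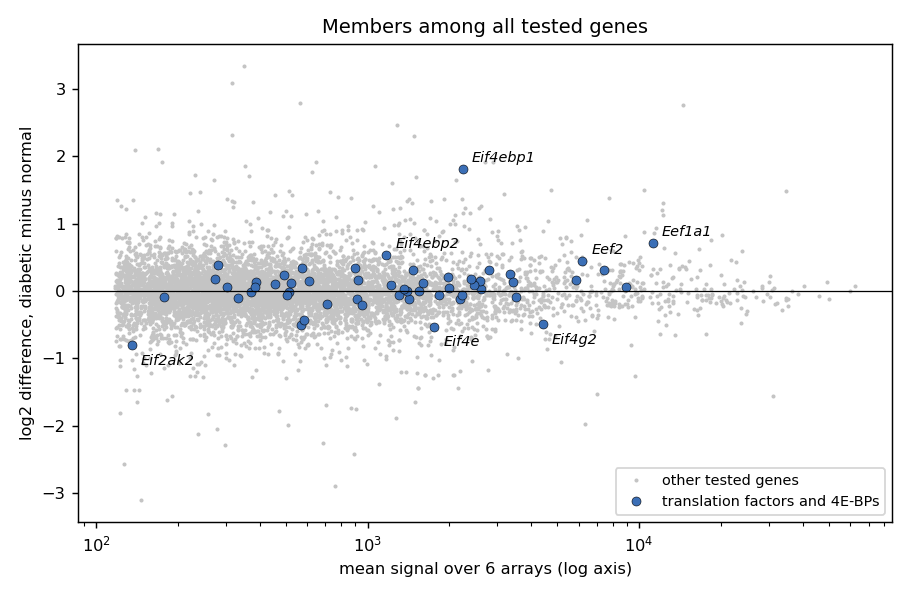
Each point is 1 tested gene at its brightest probe set, with the mean signal over 6 arrays on a log axis and the log2 difference, diabetic minus normal, on the vertical axis; the 53 tested members are blue and all other tested genes grey. Eif4ebp1 lies at 1.81, while the other members lie between -0.81 and 0.71.

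The intervals set a limit on what could have been missed. Among the 52 members that did not pass, 50 had a 95% interval of the difference wholly between -1 and 1 on the log2 scale, and 37 had a difference smaller than 0.25 in size. The exceptions with wider intervals were Eif2ak2 and Eef1a1, which reached -1.40 and 1.37. An interval that excluded 0 before any adjustment was found for 11 of the 52.

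**Figure D2:**
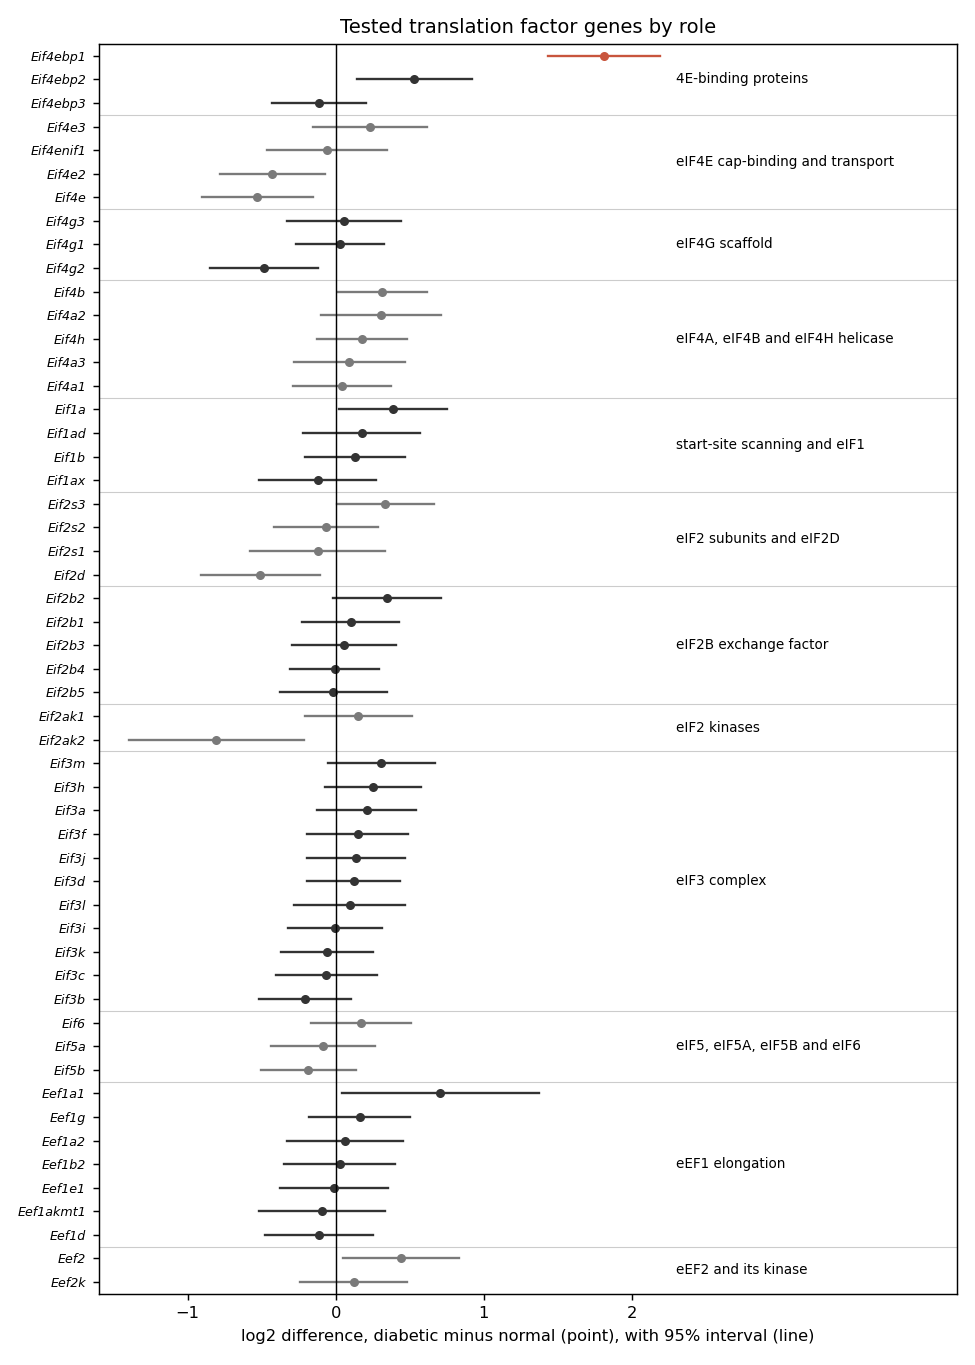
Log2 difference, diabetic minus normal, of the 53 tested members (points) with 95% intervals from limma (lines), grouped by role. Eif4ebp1, in red, is the only one with an adjusted p under 0.05, and its interval runs from 1.43 to 2.19.

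Of the 3 genes of 4E-binding proteins only Eif4ebp1 passed. Eif4ebp1 gave signals of 1087, 1091 and 802 in normal 1, 2 and 3, and of 3322, 3772 and 3400 in diabetic 1, 2 and 3. Every diabetic array was more than 3 times the mean of the normal arrays, and the groups were far apart. The means were 993 ± 166 and 3498 ± 240.4 (SD, n = 3 per group), a difference of 1.81 ± 0.17 (limma adjusted p = 0.00208). Among the 9518 tested probe sets this was the 20th largest rise and the 10th smallest p-value. The call held with each array left out, at 1.67 to 1.88 (limma adjusted p at most 0.0118), and the smallest of these values came without normal 3, the array with the lowest Eif4ebp1 signal.

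Eif4ebp2, which encodes 4E-BP2, a second repressor of eIF4E, gave 1006, 1100.4 and 774 in normal and 1503, 1378 and 1267 in diabetic arrays. All diabetic arrays lay above all normal arrays, but the difference of 0.53 ± 0.17 did not pass (limma adjusted p = 0.133). Eif4ebp3, for 4E-BP3, gave 311, 366 and 365 in normal and 319.5, 332 and 308 in diabetic arrays. These groups overlapped, and the difference was -0.11 ± 0.14 with a 95% interval of -0.43 to 0.21. Taken within each array, the difference of Eif4ebp1 was larger than that of Eif4ebp2 by 1.28 ± 0.10 and than that of Eif4ebp3 by 1.92 ± 0.19 (log2, standard errors over arrays). That of Eif4ebp2 was larger than that of Eif4ebp3 by 0.64 ± 0.19. The within-array values of the groups did not overlap in any of these comparisons. Each gave p = 0.1 in an exact two-sided permutation test, also after adjustment over the 4 comparisons made, and 0.1 is the smallest that 3 against 3 arrays can give.

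Some listed markers of other cells also differed between the groups. Of 9 tested fibroblast markers 4 fell, all of them matrix genes (Col1a1, Col1a2, Col3a1 and Lum). The rest did not pass and overlapped between groups at their brightest probe sets. Among these, Dcn, also a matrix gene, was at -0.01 ± 0.15 and Vim at 0.17. Pdgfra, Tcf21 and Dpt were at -0.24, -0.29 and -0.36. The summed signal of the 10 on the array was 41469 to 47005 in normal and 28906 to 31062 in diabetic arrays. Col3a1 alone had group means of 10058 and 2579. Of 4 atrial markers only Nppa rose, with group means of 3671 in normal and 25244 in diabetic arrays. Their summed signal was 3871 to 5176 against 20566 to 30669, most of it from Nppa in both groups. Myl7, Myl4 and Sln overlapped between groups and did not pass, at 0.17 ± 0.69, 0.43 ± 0.47 and 1.64 ± 0.80. None of the 7 endothelial, 6 smooth muscle and pericyte, 5 macrophage and leukocyte, 3 blood, 2 adipocyte or 3 skeletal muscle markers tested passed. The endothelial sum was 8374 to 9369 against 8531 to 9566. Pecam1 was higher in every diabetic array at 0.68, and Emcn was lower in each at -0.30. The smooth muscle and pericyte sum did not overlap, at 12391 to 13918 against 13955 to 15606. In that list Des was higher in every diabetic array at 0.37 and Rgs5 lower in each at -0.56. Groups did not overlap at 2 of the 7 endothelial and 2 of the 6 smooth muscle and pericyte markers, against 26.4% of all tested genes. No listed marker had a signal of 0 throughout. In whole tissue, fewer cells of a type and less RNA per cell cannot be told apart, and the part of these markers in the Eif4ebp1 result was not tested.

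The target of the 4E-binding proteins gave lower signals in diabetic arrays without passing the test. Eif4e, the cap-binding protein itself, gave 2019, 1810 and 2416 in normal and 1617, 1291 and 1396 in diabetic arrays. All diabetic arrays were lower, with a difference of -0.53 ± 0.17 (limma adjusted p = 0.126). Its other probe set, at signals of 105 to 166, differed by 0.03 ± 0.18, so the probe sets of this gene disagree. Within each array the difference of Eif4ebp1 was larger than that of Eif4e at its brighter probe set by 2.34 ± 0.30, with no overlap between groups (exact permutation p = 0.1, 0.1 after adjustment). Eif4e2, for a cap-binding relative that takes part in repression, gave 728, 599 and 688.5 in normal and 533, 427 and 529 in diabetic arrays. Here too the groups did not overlap, at -0.43 ± 0.16 (limma adjusted p = 0.175). Eif4e3, another family member, differed by 0.23 and Eif4enif1, which carries eIF4E into the nucleus, by -0.06.

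**Figure D3:**
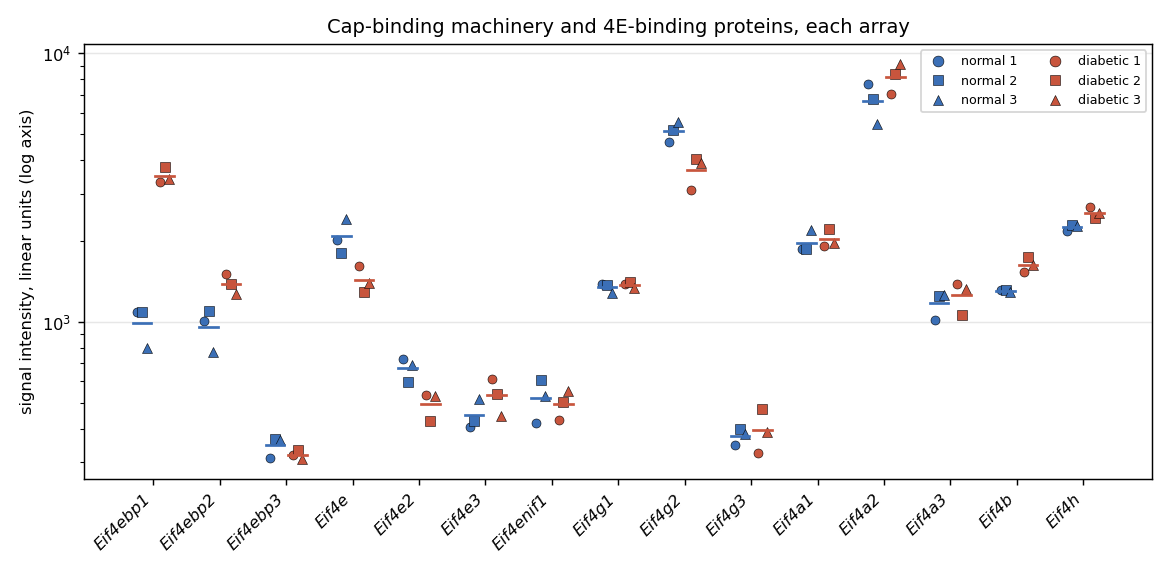
Signal of the cap-binding machinery and the 4E-binding proteins in each array (log axis), with normal arrays in blue, diabetic in red, 1 marker shape per replicate number and lines at group means. Eif4ebp1 stands apart at 802 to 1091 against 3322 to 3772, and Eif4g1 lies between 1286 and 1407 in all 6 arrays.

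None of the 3 scaffold genes passed. Eif4g1, the main eIF4G, gave 1389, 1370 and 1286 in normal and 1379, 1407 and 1341 in diabetic arrays. These values overlapped almost fully, at 0.03 ± 0.13 with a 95% interval of -0.27 to 0.33. A dimmer probe set of Eif4g1 was more scattered, at 0.44 ± 0.29. Eif4g2, which encodes DAP5, a relative that lacks the eIF4E-binding site, gave 4667, 5199 and 5546 in normal and 3089, 4044 and 3918 in diabetic arrays. No value overlapped, but -0.48 ± 0.16 did not pass (limma adjusted p = 0.142), and a second probe set was at -0.40 ± 0.20. Eif4g3 differed by 0.06 ± 0.17, from signals of 347 to 398 in normal and 324.5 to 474 in diabetic arrays.

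The helicase group had positive differences in all 5 genes, from 0.05 to 0.32, also after quantile or median scaling, and none passed. Eif4b, a helper of the helicase, gave 1316, 1319 and 1291 in normal and 1540, 1740 and 1626 in diabetic arrays. The normal arrays were close together and below every diabetic array, and the difference was 0.32 ± 0.13 (limma adjusted p = 0.232). A dimmer probe set was at 0.33 ± 0.23. Eif4a2, an eIF4A form abundant in muscle, gave 7695, 6772 and 5449 in normal and 7035, 8347 and 9148 in diabetic arrays. The groups overlapped through diabetic 1, at 0.31 ± 0.18. Eif4a1, the other cytoplasmic form, was at 0.05 ± 0.15 (-0.018 without diabetic 2), with 1862 to 2190 in normal and 1916 to 2218 in diabetic arrays. Eif4h, like Eif4b a partner of eIF4A, was higher in every diabetic array at 0.18, and Eif4a3, of the exon junction complex, differed by 0.09.

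For start-site selection and tRNA delivery, 8 genes were tested and none passed. Eif1a gave 231, 221 and 271 in normal and 366, 320 and 277 in diabetic arrays. The lowest diabetic array was just above the highest normal array, at 0.39 ± 0.16 (limma adjusted p = 0.22). The closely related Eif1ax, at signals of 1214 to 1738, was at -0.12, and these copies may share signal. Eif1ad, for a protein with an eIF1A-like domain, differed by 0.18 and Eif1b by 0.13. Eif2s3, for the GTP-binding gamma subunit of eIF2, gave 844, 761.5 and 775.5 in normal and 903, 1009 and 1109 in diabetic arrays. It was higher in every diabetic array, at 0.33 ± 0.14 (limma adjusted p = 0.242). The alpha and beta subunits, Eif2s1 and Eif2s2, were at -0.12 and -0.06, and overlapped between groups. Eif2d, whose product can deliver tRNA without eIF2, gave 644, 605 and 766 in normal and 379, 530.5 and 501 in diabetic arrays, all lower, at -0.51 ± 0.18 (limma adjusted p = 0.157).

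The eIF2B genes, whose complex recharges eIF2 with GTP, had no called gene. Their 5 differences ran from -0.01 to 0.34, and all 5 overlapped between groups. The highest was Eif2b2, with 448, 478 and 592 in normal and 708, 642 and 582 in diabetic arrays, at 0.34 ± 0.16 (limma adjusted p = 0.28). Eif2b1 was at 0.10 ± 0.14. Eif2b5, the catalytic subunit, was at -0.01 ± 0.16 at its brighter probe set and -0.35 ± 0.23 at the dimmer.

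The eIF2 kinases, which slow initiation under stress by phosphorylating eIF2 alpha, had no called gene, and 3 of the 4 (Eif2ak2, Eif2ak3 and Eif2ak4) were dim on this array. Eif2ak2, for the double-stranded RNA sensor PKR, gave 129, 182 and 217 in normal and 66.6, 82.1 and 137.5 in diabetic arrays. Its difference of -0.81 ± 0.26 was the lowest of all members, yet diabetic 3 lay above normal 1 and the call failed (limma adjusted p = 0.133). Eif2ak1, for the heme-regulated kinase, gave 563, 624 and 534 in normal and 721, 543 and 665 in diabetic arrays, at 0.15 ± 0.16. Its second probe set was at -0.30 ± 0.23, and the mean of both gave -0.07, so no direction can be given. Eif2ak3, for the endoplasmic reticulum kinase PERK, and Eif2ak4, for the amino acid sensor GCN2, lay below the filter. Eif2ak3 gave 93.2, 103 and 124 in normal and 115, 105 and 157 in diabetic arrays. Eif2ak4 gave 113, 127 and 107 in normal and 103, 83.5 and 133 in diabetic arrays, and both overlapped.

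The eIF3 complex, the largest initiation factor, was represented by 11 genes, and none passed. Their differences ran from -0.20 to 0.31 with a median of 0.12, and 7 were positive. Eif3m gave 2487, 2520 and 2439 in normal and 2571, 3180 and 3572.5 in diabetic arrays. The normal arrays were tightly grouped while the diabetic arrays spread widely, at 0.31 ± 0.16 (limma adjusted p = 0.325). Eif3h gave 3153, 3114 and 2911 in normal and 3328, 3619 and 4025 in diabetic arrays, at 0.25 ± 0.14 with no overlap (limma adjusted p = 0.365). Eif3b, a core subunit, was lower in every diabetic array, at -0.20 ± 0.14. Eif3i, its neighbour in the complex, was at -0.00364 with a 95% interval of -0.32 to 0.32. Of the late-acting factors, Eif5b, which joins the ribosomal subunits, gave 744, 756 and 760.0 in normal and 587, 683 and 718 in diabetic arrays, at -0.19 ± 0.14. Eif6, which keeps the large subunit apart, was at 0.17 ± 0.15, and Eif5a, needed for difficult peptide bonds, at -0.09 ± 0.15.

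Among elongation factors none of 9 tested genes passed. Eef2 gave 4633, 5522 and 5516 in normal and 5845, 8268 and 7344 in diabetic arrays. Every diabetic array was higher, at 0.44 ± 0.17 (limma adjusted p = 0.2). Its kinase Eef2k gave 474, 486 and 531 in normal and 470, 642 and 526 in diabetic arrays, which overlapped, at 0.12 ± 0.16. Its other tested probe sets, at signals of 110 to 235, were at 0.18 and 0.48, and the dimmest lay below the filter. Eef1a1, the general form of eEF1A, gave 8007, 10169 and 6838 in normal and 8262, 16324 and 17935 in diabetic arrays. Diabetic 2 and 3 were far above all others while diabetic 1 lay among the normal arrays, at 0.71 ± 0.29 (limma adjusted p = 0.223). Without diabetic 1 the difference was 1.05, at the edge of the threshold but not called (limma adjusted p = 0.05). A second Eef1a1 probe set, nearly as bright, gave -0.09 ± 0.19 and did not show the high values, with 6884 in diabetic 2 and 10017 in diabetic 3. These probe sets disagree, so the signal of Eef1a1 is uncertain. Eef1a1 has many near-identical copies in the genome, and whether they add to either signal was not tested.

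Eef1a2, the eEF1A form of heart, skeletal muscle and neurons, gave 8565, 9735 and 7777 in normal and 7432, 10080 and 9901 in diabetic arrays. These overlapped, and the difference of 0.06 ± 0.17 turned to -0.03 after quantile normalization, so no direction can be given. Its 95% interval ran from -0.33 to 0.46. The exchange factor subunits that recharge eEF1A, Eef1b2, Eef1d and Eef1g, were at 0.03, -0.11 and 0.16. Eef1e1, for a scaffold protein of the tRNA synthetase complex, was at -0.01 and Eef1akmt1, for a methyltransferase, at -0.09. Eef1akmt4 lay below the filter, with 58.1 to 81.4 in normal and 65.2 to 153 in diabetic arrays.

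Diabetic 1 held the lowest of the 3 diabetic values at 32 of 53 members (60.4%), against 33.8% of all tested genes. Diabetic 2 did so at 13 members and diabetic 3 at 8. The median over members, relative to the mean of the normal arrays, was -0.02 in diabetic 1, 0.09 in diabetic 2 and 0.08 in diabetic 3, while over all tested genes it stayed between -0.03 and 0.00. For the eIF3 genes alone it was -0.04, 0.09 and 0.29. In normal arrays the lowest value fell to normal 1 at 27 members (50.9%, against 34.1% of all tested genes). Eif4ebp1 remained the only member called without diabetic 1.

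**Figure D4:**
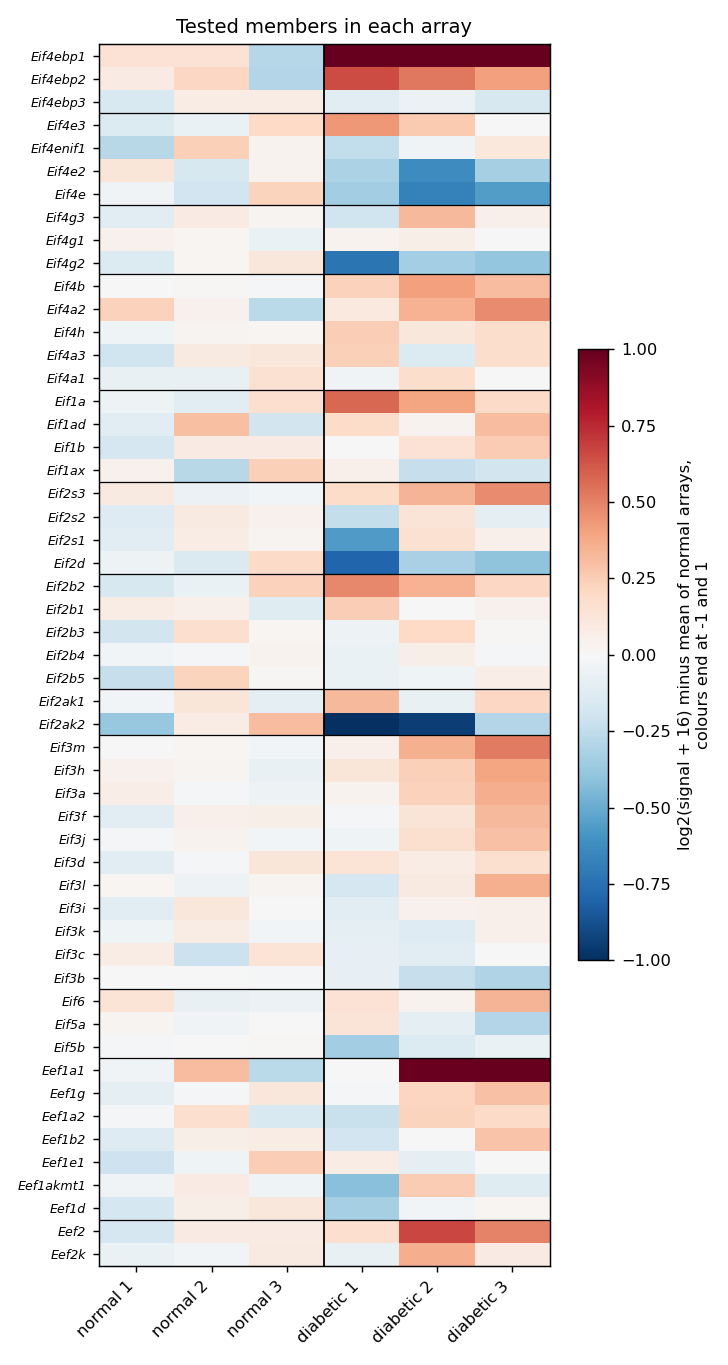
Each row is a tested member and each column an array; colour is log2(signal + 16) minus the mean of the 3 normal arrays, ending at -1 and 1. Eif4ebp1 is at the end of the scale in all 3 diabetic arrays, and diabetic 1 holds the lowest diabetic value in 32 of the 53 rows.

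Many of these factors are themselves encoded by TOP mRNAs, whose transcripts begin with a C followed by a run of C and T and whose translation is sensitive to mTORC1. A list of 14 TOP translation factors had 13 genes on the array, all tested. None passed, 11 had positive differences (10 after quantile normalization), and the median was 0.16 against 0.04 for the other members. The 30 bases around the RefSeq start of members (15 before, 15 from the start on) were searched on the transcript strand. The search was for a run of at least 8 bases of C and T anywhere in this window, not for a C at the start. A window was found for 51 of the 56 genes. None was found for Eif4ebp1 and Eif4e3, nor for Eef1d, Eif3h and Eif4b of the TOP list. Such a run was present in 5 of 10 TOP list members and 5 of 41 other members, and in 11.4% of 33469 windows of the rat genome table. The 5 TOP list windows with such a run are shown, in RefSeq build GRCr8, with the longest run in capitals.
Eef1a1, chr8:88225055-88225084, minus strand: tcgccttggacgTTCTTTTTCgcaacgggt
Eef1b2, chr9:72074076-72074105, plus strand: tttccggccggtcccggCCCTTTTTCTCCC
Eif2s3, chrX:62933685-62933714, minus strand: ggcggcagccgagcaTTTTCCTTTTCTCTC
Eif3f, chr1:172369047-172369076, plus strand: tcacgcccttccgttctagCCTCTCTCTTT
Eif3k, chr1:93397473-93397502, minus strand: TCTTTTTCTTCCggtccttgagtacttagt
In Eif2s3 the run begins at the annotated start itself, in Eef1a1 it spans the start, and in Eif3k it ends before it. In Eef1b2 and Eif3f it begins after the start. In none of the 5 does the run open with a C at the annotated start. The differences of these 5 genes, in the order shown, were 0.71, 0.03, 0.33, 0.15 and -0.06, and none passed. A run of this kind is a description of the letters and not evidence of a TOP mRNA.

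Genes around these factors were counted from lists with 95 genes on the array and 82 tested. Of these 3 rose and none fell, which is 3.66% against 2.61% of all tested genes. The lists were chosen with earlier results of these data known, so this share is no test of them against other genes. Sesn1, the only called gene among 24 tested genes of mTORC1 and S6 kinase signalling, encodes a sestrin, a family that restrains mTORC1 under stress. It gave 1639, 1442 and 1033 in normal and 3039, 3550 and 2998 in diabetic arrays. The groups were well separated, at 1.23 ± 0.19 (limma adjusted p = 0.0146), and the call was lost without diabetic 2 (1.15, limma adjusted p = 0.0624). Ddit4l, for another inhibitor of mTORC1 in muscle, gave 1700, 1286 and 1046 in normal and 2486, 2280 and 2493 in diabetic arrays. It just missed the threshold at 0.87 ± 0.19 (limma adjusted p = 0.0517). Rptor, for a subunit of mTORC1 itself, was also higher in every diabetic array, at 0.56 ± 0.20 (limma adjusted p = 0.176). So were Flcn, Pdcd4 and Tsc1 at their brightest probe sets, at 0.42, 0.40 and 0.37, and none of these passed. Groups did not overlap at 7 of the 24 tested genes of this list, against 26.4% of all tested genes. Among other genes of the list, Tsc2, Deptor, Akt1s1 and Ddit4 overlapped at their brightest probe sets, at -0.09, 0.01, 0.0035 and 0.23. Mtor, the kinase, was at -0.15 ± 0.18 and Rps6kb1, the S6 kinase, at -0.05 ± 0.16. Akt1, the upstream kinase, was lower in every diabetic array at its brightest probe set, at -0.69 ± 0.18 (limma adjusted p = 0.0882). Its next probe set was at -0.05 ± 0.17.

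In the list of the integrated stress response, the programme that follows phosphorylation of eIF2, 21 genes were on the array and 12 were tested. Of the 12, 2 rose, and groups did not overlap at 6, against 26.4% of all tested genes. Slc3a2, the heavy chain shared by several amino acid transporters, gave 1159, 963 and 793 in normal and 2822, 2538 and 2031 in diabetic arrays. All diabetic arrays were higher, at 1.33 ± 0.19 (limma adjusted p = 0.0115). Nupr1, a stress-induced nuclear protein, gave 161, 144 and 179 in normal and 518, 482 and 342 in diabetic arrays, at 1.37 ± 0.19 (limma adjusted p = 0.00896). Atf4, the central transcription factor of the response, was at 0.16 ± 0.13, and Ddit3, its partner CHOP, at 0.24 ± 0.16. Ppp1r15a, which directs the dephosphorylation of eIF2 alpha, was at 0.44 ± 0.16, and none of the 3 passed. Herpud1 was higher in every diabetic array, at 0.87 ± 0.24 (limma adjusted p = 0.0962), and Cebpb was at 0.90 ± 0.50 with overlap. Neither passed. Other genes of the list went the other way, also without passing. Vldlr was lower in every diabetic array, at -0.37 ± 0.14 at its brightest probe set (limma adjusted p = 0.178) and at -0.48 and -0.43 elsewhere. Atf5 was at -0.23 ± 0.16, with overlap. Asns and Trib3, common targets of ATF4, lay below the filter. None of the 3 calls in the lists held without the filter on dim probe sets, where the adjusted p in limma was 0.0745 to 0.097.

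**Figure D5:**
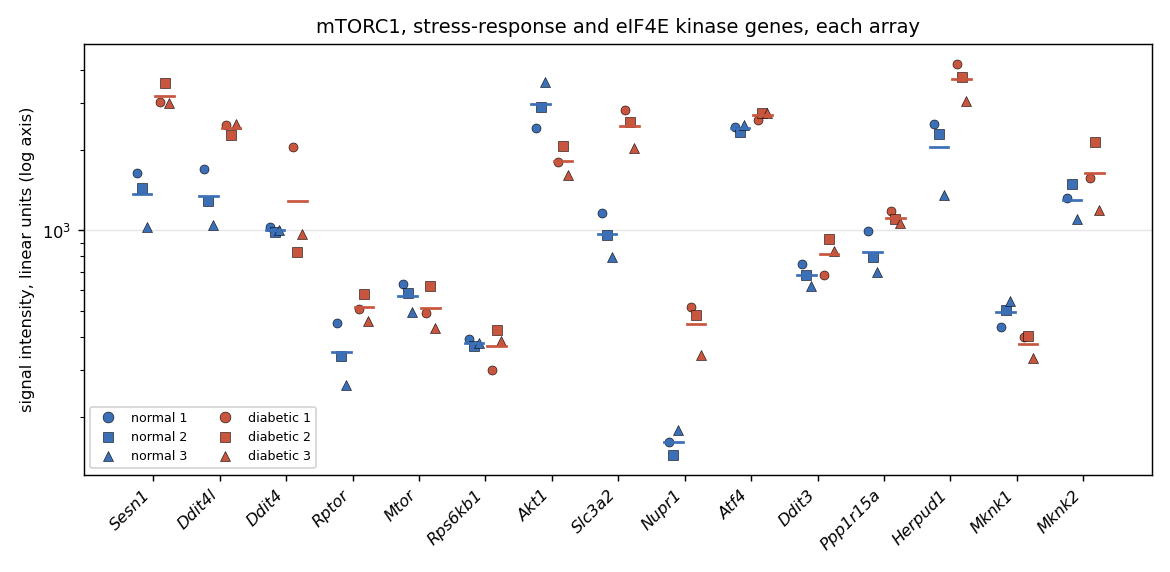
Signal of selected genes of mTORC1 signalling, the integrated stress response and eIF4E kinases in each array (log axis), normal in blue and diabetic in red, with 1 marker shape per replicate number and lines at group means. Sesn1, Slc3a2 and Nupr1 are separated between groups, while Mtor and Rps6kb1 overlap.

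No gene passed among 7 tested eIF4E kinases and cap or poly(A) partners (median 0.01), 13 termination, recycling and other factors (median -0.11), 21 aminoacyl-tRNA synthetases and their scaffolds (median 0.03) or 5 TOP mRNAs outside this set (median 0.17). The lowest limma adjusted p in these lists were 0.22, 0.0675, 0.157 and 0.216. The second belonged to Gfm1, a mitochondrial elongation factor, at 2118, 1910.2 and 1736.5 in normal and 1053, 1104 and 1419 in diabetic arrays (-0.69 ± 0.17). Mknk1, a kinase that phosphorylates eIF4E, was lower in every diabetic array at -0.38 ± 0.15, and Mknk2, the other such kinase, was at 0.29 ± 0.22.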

How the data were processed

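Total RNA of 6 left ventricles (3 normal, 3 diabetic) was hybridised to 1 array each. The authors deposited 1 linear signal intensity per probe set and array; the sources used here do not give their software, normalization or background treatment. With 2% of probe sets trimmed from each end, every array had a mean of 500.2, so no rescaling was done. No detection calls were used, and precision is limited by the number of arrays.

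Of 15923 probe sets, 57 controls were left out. Gene names came from the platform annotation (12783 probe sets with 1 gene, 312 with several, 2771 unnamed here), and all 56 member symbols matched a RefSeq rat gene table (GRCr8, used for names). Intensities became log2(value + 16), and limma 3.58.1 (R 4.3.3) fitted group as the single term with lmFit and eBayes (two-sided tests, Benjamini-Hochberg over 9518 tested probe sets). The code was tested on simulated data. The members and lists were chosen with earlier results of these data known. Described gene by gene are all called members, the 4E-binding proteins, eEF1A, eEF2 and its kinase, eIF2 kinases, eIF4F genes and the 2 smallest p per role; others named illustrate a role or were chosen after their values were seen. List genes outside calls were also chosen after their values were seen. Figures used matplotlib 3.10.9.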

Additional observations from a re-analysis of the deposited data

How the results depend on the processing

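Eif4ebp1 kept its rise and its call, as the only member called, in all 18 alternatives to the fit, with differences of 1.67 to 1.88 and limma adjusted p from 6.69e-05 to 0.0451, the highest without a filter; at a threshold of 0.1 it was also the only one. The median over members was 0.04 to 0.11 with 1 array left out. The count of changed probe sets, 245, was 386 with a pseudocount of 64, 18 without a filter, 429 with a filter at the 60th percentile, 525 with an intensity trend, 661 at a threshold of 0.1, 95 to 180 with 1 array left out, and 274 when the filter used mean log2 values, a choice added after seeing the data. The 3 list genes called became 5 with a pseudocount of 64, 6 with the 60th percentile, 7 with the trend, 7 at 0.1, 2 to 4 with 1 array left out, and 0 in limma without a filter (16 at an unadjusted p under 0.05). Members without overlap numbered 18 to 25 with 1 array left out (33.3% to 47.2%, against 34.2% to 39.8% of all tested genes), where fewer arrays make overlap rarer by construction; the highest, 25 (47.2% against 39.8%), came without diabetic 1. Signs were followed only for the 28 tested members picked by the rule above, and not for other members such as Eif3i and Eef1e1. Among the eIF2B genes, 3 differences were positive as reported and 4 after quantile normalization. Of the 28, 23 kept their sign throughout. The others were Eef1a2 (-0.0308 after quantile normalization, -0.0129 to 0.207 with 1 array left out), Eif4a1 (-0.018 to 0.123), Eif4g1 (-0.00436 to 0.051), Eif4g3 (-0.0742 to 0.189) and Eif2ak1 (-0.0724 as the mean of its probe sets). The replicate number as a block gave 163 changed probe sets and 1 member. Arrays sharing a number deviated together at r = 0.0821, 0.0294 and 0.0134. The labels do not say whether they share more than a number, and this was not tested. No detection calls were used, and differences at signals as dim as those of Eif2ak2, Eif2ak3 and Eif2ak4 may be understated.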

Other observations

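Among single-gene probe sets outside the set, those whose log2 values over the 6 arrays were most like Eif4ebp1 were Aig1 (Pearson r = 0.999), Myh1 (0.998) and Bud31 (0.997). All 6 points share 1 group difference, so these values describe mainly that step. The steps differed in size, at 0.27 ± 0.13 for Aig1 (limma adjusted p = 0.29), 1.13 ± 0.15 for Myh1 and 1.22 ± 0.15 for Bud31.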
